A study of Mus musculus with 45 samples.

Results

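Potassium channels let potassium ions leave or enter a cell along their gradient, and so set the resting voltage of the membrane and end the action potentials of heart, muscle and nerve. Voltage-gated channels open when the membrane is depolarised, inward rectifiers and tandem-pore-domain channels hold the resting voltage, and calcium- or sodium-activated channels answer to ions inside the cell. Auxiliary subunits change how and where these pores work, and electrically silent subunits act only when joined to other voltage-gated pores.

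The potassium channel genes described here are all genes whose annotated symbol starts with Kcn. Of 18193 genes with a single annotated symbol, 84 met this rule, and each was represented by its probe set with the highest mean over all 45 arrays. They comprised 22 voltage-gated pore subunits, 15 inward rectifiers (Kcnj), 15 auxiliary subunits, 12 tandem-pore-domain channels (Kcnk), 9 electrically silent subunits, 8 calcium- or sodium-activated pore subunits and 3 non-coding transcripts. The non-coding transcripts (Kcnq1ot1, Kcnmb4os1 and Kcnmb4os2) came in through their symbols and encode no channel.

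The study followed male mouse embryonic stem cells (ESCs) of strain 129 on their way into embryoid bodies, the cell aggregates formed by the hanging drop method. It set a line labelled as silenced for Strip2 (KD) beside a line carrying a scrambled control (SCR) and the wild type (WT), each as undifferentiated ESCs and as bodies of 4, 8, 12 and 16 days. Each of the 15 groups had 3 arrays (Affymetrix Mouse430 2.0), whose values are log2 levels made by the authors. The labels do not say whether KD and SCR are single clones, nor whether the 3 arrays of a group stem from 3 cultures. The p-values therefore gauge the scatter among these arrays alone, and that scatter may be technical.

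The single Strip2 probe set did not bear out the KD label, but it was too dim to settle it. All its group means lay below the array median of 5.07. It read 2.66, 2.77 and 2.72 in KD-labelled ESCs, 2.82, 2.86 and 2.86 in SCR ESCs and 2.5, 2.59 and 3 in WT ESCs. At such levels a loss of Strip2 could hardly be seen. At day 12 the Strip2 mean was 3.75 in KD-labelled bodies, 4.67 in SCR bodies and 3.12 in WT bodies. At day 16 it was 3.28 in KD-labelled bodies, 4.85 in SCR bodies and 2.88 in WT bodies. KD-labelled bodies were thus below SCR but not below WT at both days. The line is therefore called KD-labelled throughout. Array medians lay between 5.02 and 5.18, arrays of a group had pairwise correlations of 0.9888 to 0.9961, and the number of arrays limits the precision of every value. The ESC label was borne out by the pluripotency markers in all lines (Pou5f1, Nanog, Zfp42, Sox2 and Esrrb, summed on the linear scale and given as log2): 13.95 to 14 in KD-labelled ESCs, 13.52 to 14.04 in SCR ESCs and 13.98 to 14.32 in WT ESCs. At day 16 the same sum was 13.68 to 13.72 in KD-labelled bodies, against 9.48 to 9.99 in SCR bodies and 9.53 to 10.43 in WT bodies. These are whole bodies, so fewer cells of a type and less RNA per cell cannot be told apart in any result that follows.

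Sequence around 4 transcription starts is shown for genes that differed widely between KD-labelled and SCR samples. Among potassium channel genes at day 16, Kcnj8 and Kcnd3 were furthest below SCR in KD-labelled bodies and Kcnk5 was furthest above. Kcnk1 was below SCR in KD-labelled ESCs and above it in the bodies. Each sequence runs from 250 bases before to 50 after the start on the gene's strand (RefSeq, build GRCm38.p6). Kcnj8 lies at chr6:142571565-142571864 on the minus strand, Kcnd3 at chr3:105451640-105451939 on the plus strand, Kcnk1 at chr8:125994852-125995151 on the plus strand and Kcnk5 at chr14:20181733-20182032 on the minus strand. Capitals mark matches to GGGCGG, the GC box.
Kcnj8: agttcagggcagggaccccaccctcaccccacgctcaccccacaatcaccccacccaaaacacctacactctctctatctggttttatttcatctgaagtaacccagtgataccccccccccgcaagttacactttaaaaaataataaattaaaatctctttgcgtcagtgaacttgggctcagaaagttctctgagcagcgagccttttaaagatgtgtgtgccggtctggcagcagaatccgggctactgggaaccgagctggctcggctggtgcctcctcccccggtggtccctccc
Kcnd3: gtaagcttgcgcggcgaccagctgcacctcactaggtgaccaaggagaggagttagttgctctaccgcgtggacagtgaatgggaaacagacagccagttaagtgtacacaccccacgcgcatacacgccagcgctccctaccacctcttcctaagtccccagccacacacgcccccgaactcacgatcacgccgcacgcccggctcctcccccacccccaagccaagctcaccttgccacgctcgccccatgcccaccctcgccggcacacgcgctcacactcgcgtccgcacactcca
Kcnk1: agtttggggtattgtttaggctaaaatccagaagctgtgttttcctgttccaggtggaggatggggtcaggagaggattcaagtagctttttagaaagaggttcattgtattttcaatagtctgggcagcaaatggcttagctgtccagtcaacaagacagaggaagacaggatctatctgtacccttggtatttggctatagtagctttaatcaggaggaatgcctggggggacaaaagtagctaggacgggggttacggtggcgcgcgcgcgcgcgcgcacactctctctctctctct
Kcnk5: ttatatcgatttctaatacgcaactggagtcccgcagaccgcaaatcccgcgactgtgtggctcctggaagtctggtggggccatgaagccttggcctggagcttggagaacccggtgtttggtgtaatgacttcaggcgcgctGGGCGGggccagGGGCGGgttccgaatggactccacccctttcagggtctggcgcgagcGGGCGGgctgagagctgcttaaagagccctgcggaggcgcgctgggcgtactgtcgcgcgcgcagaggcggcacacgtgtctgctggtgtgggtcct
Kcnk5 held 3 GC boxes in these 300 bases, and no GC box was found in the other windows. RefSeq windows were matched for 64 of the 84 genes, 89 windows in all. GGGCGG on either strand was in 48.3% of them, against 35.7% of 32851 windows of all genes, the TATA box TATAAA in 5.62% against 13.6%, and the GATA motif AGATAA in 4.49% against 11.2%. The windows of potassium channel genes had a median GC content of 58%, against 52.7% for all windows. A match is only a match of letters, and no match says only that these letters are not in this window.

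Most potassium channel genes were dim in these cells. The values come with no detection calls, so whether a dim probe set stood above background is not known, and folds are ratios of these signals. The mean over all arrays was above that of the median gene for 8 of the 84. A group mean above the array median of 5.07 was reached by 42 in some group and by 15 in every group. Group means spanned less than 1 log2 unit in 51 genes and at least 2 in 13. Kcnj8 spanned 5.72, from 3.66 in WT bodies of 4 days to 9.38 in SCR bodies of 16 days.

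Differences between KD-labelled and SCR samples grew with time, as they did for genes at large. A gene was called at an adjusted p under 0.05 in limma, adjusted over all 18193 genes of a comparison. In ESCs 6 potassium channel genes were higher and 3 lower in KD-labelled cells (9 of 84, against 23.6% of all genes). At day 4 there were 8 higher and 11 lower (19 of 84, against 42.4%), and at day 8 there were 18 higher and 16 lower (34 of 84, against 52.8%). At day 12 the calls were 18 higher and 19 lower (37 of 84, against 55.6%), and at day 16 they were 37 higher and 16 lower (53 of 84, against 66.6%). At every stage the called share of potassium channel genes was below that of all genes.

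At day 16 the rises (higher in KD-labelled than in SCR bodies) were mostly small and the falls (lower than in SCR bodies) larger, as over all genes. Only 5 of the 37 rises reached 2-fold, beside 1890 of 7233 rises over all genes. Of the 16 falls, 10 reached 2-fold, beside 2372 of 4884 falls over all genes. Counted over genes tested, these were 5 of 84 rises (10.4% of all genes) and 10 of 84 falls (13% of all genes). The median difference was 0.23 over potassium channel genes and 0.17 over all genes, and this shift depends on scaling. With cyclic loess between arrays the medians were 0.09 and 0.05 and the calls 25 higher and 17 lower, so that the higher share was 59.5% in place of 69.8%. At day 8 loess gave 13 higher and 20 lower, turning the balance, and in ESCs 5 higher and 4 lower.

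The call count in ESCs rested on single arrays. It was 5 without KD-labelled ESC replicate 1 or 3, and 4 without SCR ESC replicate 1 or 3.

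Against WT, potassium channel genes gave 5 calls in ESCs (2 higher and 3 lower in KD-labelled cells, against 18.4% of all genes). There were 25 at day 4 (11 and 14, against 39.1%), 30 at day 8 (15 and 15, against 49.9%), 33 at day 12 (17 and 16, against 50.7%) and 45 at day 16 (32 and 13, against 60.8%). With loess the split was 18 higher and 15 lower at day 16 and 0 higher and 4 lower in ESCs, and with arrays centred on their medians it was 1 higher and 4 lower in ESCs. Without KD-labelled ESC replicate 1 or WT ESC replicate 3, 3 calls were left in ESCs.

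**Figure D1:**
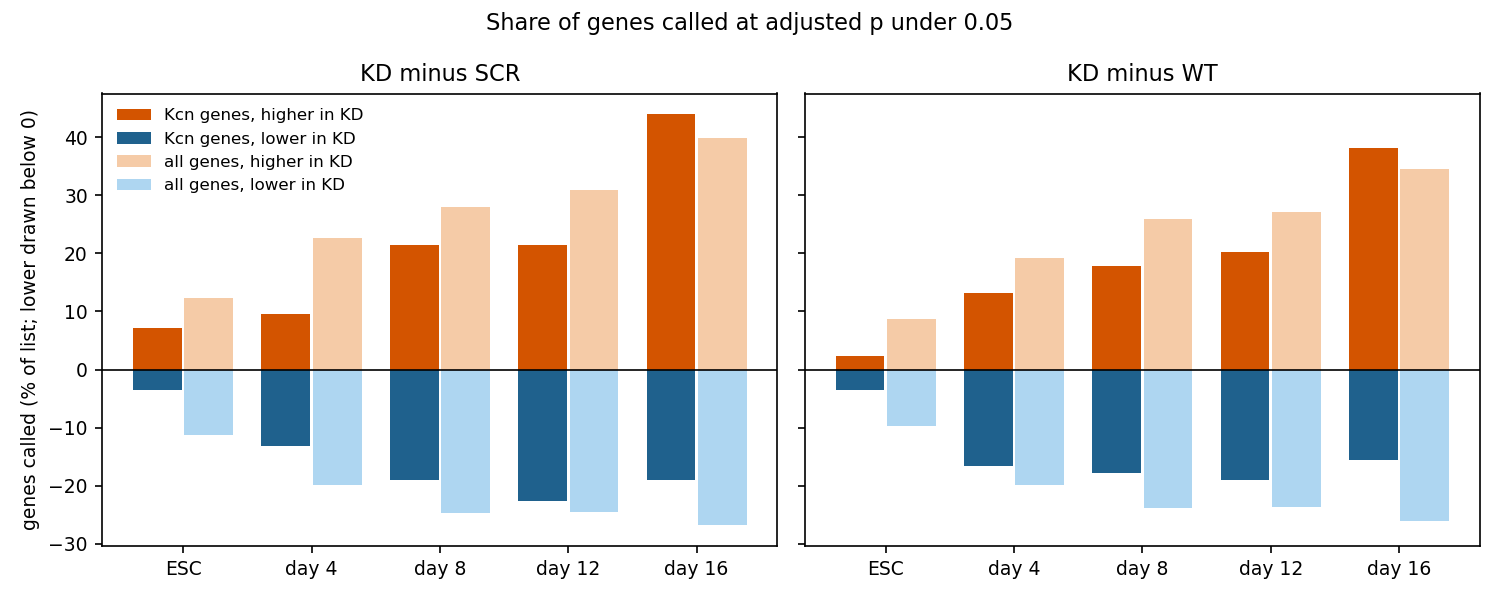
Share of genes called (percent of each list, vertical axis, with lower calls drawn below 0) at the 5 stages (horizontal axis), KD-labelled against SCR on the left and against WT on the right, for the 84 potassium channel genes (dark bars) and all 18193 genes (pale bars). At day 16 against SCR, 44% of potassium channel genes were called higher and 19% lower, beside 39.8% and 26.8% of all genes.

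A gene is written as set apart from both controls when it was called against SCR and against WT with the same sign. That held for 3 potassium channel genes in ESCs (12.1% of all genes), 18 at day 4 (34.3%), 24 at day 8 (44%), 26 at day 12 (43.9%) and 41 at day 16 (54.9%, 28 higher and 13 lower). Split by direction, 23.1% of all genes were higher and 21% lower than both at day 8, and 31.8% were higher and 23.1% lower at day 16, the shares against which the counts by role below are to be read. At all 4 days of the bodies, 5 genes were higher in the KD-labelled line than in both controls (10.6% of all genes): Kcnip2, Kcnj10, Kcnk1, Kcnk5 and Kcnk6. Another 3 were lower at all 4 days (9.14% of all genes): Kcnd3, Kcnmb4 and Kcnq5. No potassium channel gene was set apart in 1 direction at all 5 stages (2.06% of all genes were higher and 2.23% lower), and 28 were set apart at no stage (28.1% of all genes). Kcnj3, Kcnk1 and Kcns3, 3 of 84, were higher at 1 stage and lower at another (5.36% of all genes).

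Among the inward rectifiers, Kcnj8 showed the widest difference of all potassium channel genes. It encodes Kir6.1, the pore of the ATP-sensitive potassium channel of vascular smooth muscle and pericytes. At day 16 it read 4.02, 4.51 and 3.89 in KD-labelled bodies, 9.2, 9.41 and 9.54 in SCR bodies and 8.3, 8.17 and 7.65 in WT bodies. Every KD-labelled array stood below every control array, and the KD-labelled arrays of day 16 overlapped those of KD-labelled ESCs (3.77, 4.24 and 4.2). The difference was -5.24 against SCR (SE 0.22, 37.9-fold lower, limma adjusted p = 5e-21) and -3.9 against WT (14.9-fold lower, adjusted p = 2.6e-17).

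Kcnj8 set in late in the controls. At day 4 the group means were 3.99 ± 0.23 in KD-labelled bodies, 3.83 ± 0.08 in SCR bodies and 3.66 ± 0.08 in WT bodies (SD, n = 3), and no comparison was called. At day 8 they were 4.04 ± 0.01, 5.9 ± 0.46 and 4.98 ± 0.58 in the same order, and at day 12 they were 4.11 ± 0.05, 9.08 ± 0.03 and 7.06 ± 0.47. SCR stood above WT by 0.92 at day 8, 2.02 at day 12 and 1.34 at day 16, all called by limma, so the fall against SCR was the wider at each of these days. Of the 6 smooth muscle and pericyte markers, 5 were lower and 1 higher against each control at day 16. Their summed level was 8.02 to 8.89 in KD-labelled bodies of day 16, 13.31 to 13.6 in SCR bodies and 12.84 to 13.14 in WT bodies. Of these markers Cnn1, Myh11 and Rgs5 were below the array median in KD-labelled bodies of day 16, and Myh11 alone in the controls. At day 4, when Kcnj8 was called in no comparison, the sum was already higher in the controls. It was 9.15 to 9.42 in KD-labelled bodies, 11.53 to 11.78 in SCR bodies and 10.9 to 11.47 in WT bodies. Rgs5 made up most of these control sums, and only 2 of the 6 markers were lower than in both controls. The Rgs5 mean was 3.09 in KD-labelled bodies, 11.05 in SCR bodies and 10.5 in WT bodies. In the same order Acta2 had means of 7.63, 7.46 and 7, and Tagln 8.29, 7.95 and 7.9. At day 8 the controls overlapped, with 13.47 to 13.64 in SCR bodies and 13.49 to 13.78 in WT bodies. The part of such cells in the Kcnj8 result was not tested.

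Markers of further cell types moved at day 16 too. Of 5 endothelial markers, 4 were lower than in both controls. The other, Pecam1, was called higher than in WT only, with means of 6.57 in KD-labelled bodies, 6.56 in SCR bodies and 5.48 in WT bodies. The summed level of the 5 was 7.53 to 7.89 in KD-labelled bodies, 10.03 to 10.16 in SCR bodies and 8.88 to 9.8 in WT bodies. Cdh5 and Emcn were below the array median in KD-labelled bodies. All 4 markers of hepatocytes and visceral endoderm were lower, with sums of 11.64 to 12.17 in KD-labelled bodies, 14.59 to 15.25 in SCR bodies and 14.19 to 14.62 in WT bodies, and Alb was below the array median in KD-labelled bodies. Of 7 neuronal markers, 5 were lower and 1, Stmn2, higher. The sums overlapped, at 9.62 to 9.84 in KD-labelled bodies, 9.36 to 10.73 in SCR bodies and 9.43 to 10.84 in WT bodies. Stmn2 made up most of the KD-labelled sum, so the overlap says little of the other markers. Its mean was 9.4 in KD-labelled bodies, 7.83 in SCR bodies and 8.11 in WT bodies. In KD-labelled bodies Snap25, Map2, Gap43 and Syt1 were below the array median. Of 3 markers of glia and radial glia, 1 was lower and 1 higher, with sums of 7.46 to 7.81 in KD-labelled bodies, 10.17 to 11.84 in SCR bodies and 10.22 to 11.72 in WT bodies. Fabp7 made up most of these control sums, with means of 5.13 in KD-labelled bodies, 10.95 in SCR bodies and 10.89 in WT bodies. In the same order the means were 6.89, 6.54 and 6.58 for Slc1a3 and 5.34, 4.76 and 4.79 for Gfap. The part of these cell types in the results on channels of vessels, epithelia and nerve was not tested.

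The partner of Kir6.1 in these channels is a sulfonylurea receptor, Abcc9 or Abcc8. Neither was called at day 16 between KD-labelled bodies and either control, and the Abcc9 difference was 0.1 against SCR (limma adjusted p = 0.51). Both were dim in every group, with group means of 3.96 to 4.27 for Abcc9 and 3.1 to 3.52 for Abcc8, so a change may have gone unseen. Kcnj11, which encodes Kir6.2, the pore of this channel in heart muscle and pancreatic beta cells, went the other way from Kcnj8. It read 6.32, 6.8 and 6.13 in KD-labelled bodies of day 16, 5.84, 5.99 and 5.7 in SCR bodies and 5.95, 5.85 and 6.04 in WT bodies. The KD-labelled arrays lay above all 6 control arrays, by 0.57 against SCR (adjusted p = 0.00084) and 0.47 against WT (adjusted p = 0.0057).

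Kcnj3 and Kcnj5 encode GIRK1 and GIRK4, which join in the channel that slows the atria in answer to acetylcholine. Kcnj5 was lower in KD-labelled bodies than in both controls at day 4, where it read 3.54, 3.79 and 3.75 in KD-labelled bodies, 5.13, 5.01 and 5.46 in SCR bodies and 5.67, 6.06 and 6.31 in WT bodies. The difference was -1.51 against SCR (limma adjusted p = 7.7e-05) and -2.32 against WT (adjusted p = 5.8e-08). From day 8 the controls parted. At day 16 Kcnj5 read 4.58, 4.69 and 4.74 in KD-labelled bodies, 5.82, 6.64 and 6.99 in SCR bodies and 4.2, 4.38 and 3.43 in WT bodies. KD-labelled bodies were then lower than SCR only (-1.81, adjusted p = 2.8e-06), while against WT the difference was 0.67 (adjusted p = 0.056).

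SCR exceeded WT in Kcnj5 by 1.43 at day 8, 2.11 at day 12 and 2.48 at day 16 (5.58-fold, limma adjusted p = 1.5e-07). Cardiomyocyte markers moved too: at day 16, 8 of 8 fell below SCR in the KD-labelled bodies, and 5 of 8 lower and 1 higher than in WT bodies. Their summed level was 14.46 to 15.11 in SCR bodies and 10.86 to 12.66 in WT bodies, beside 8.31 to 8.67 in KD-labelled bodies. Tnnt2, Myh6, Actc1 and Nppa were below the array median in KD-labelled bodies, only Nppa in SCR bodies and Ryr2 and Nppa in WT bodies. Their part in the Kcnj5 values was not tested. A further Kcnj5 probe set, with a mean level of 4.06, gave 0.01 at day 16 against SCR (adjusted p = 0.97), and its change from SCR ESCs to day 16 was opposite to that of the brighter probe set (-0.51 beside 2.6).

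Kcnj3 differed in ESCs. It read 4.35, 4.44 and 4.41 in KD-labelled ESCs, 6.26, 6.39 and 5.74 in SCR ESCs and 5.42, 5.25 and 4.65 in WT ESCs. The 3 KD-labelled arrays were below all 6 control arrays, with a difference of -1.73 against SCR (limma adjusted p = 4.1e-10) and -0.71 against WT (adjusted p = 0.002), and SCR exceeded WT by 1.02. In the bodies the order turned at day 8, where KD-labelled bodies were higher by 0.56 than SCR (adjusted p = 0.0046) and by 0.5 than WT. By day 16 the means were 4.37 in KD-labelled bodies, 4.19 in SCR bodies and 4.21 in WT bodies, and neither comparison was called.

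The strong inward rectifiers of ventricular muscle showed little. Kcnj2 (Kir2.1) had group means between 2.33 and 2.57 in all 15 groups, among the dimmest levels, and was called in no comparison at an adjusted p under 0.05. Kcnj12 (Kir2.2) was higher in KD-labelled bodies of day 16 by 0.45 against SCR (limma adjusted p = 0.0067) and by 0.45 against WT. Without KD-labelled replicate 1 the Kcnj12 difference from SCR was 0.35 (adjusted p = 0.056), and with loess it was 0.27 (adjusted p = 0.11). Kcnj10, which encodes the glial and epithelial channel Kir4.1 and is named here after its values were seen, held its ESC level in the KD-labelled line (4.13 at day 16 and 4.13 in ESCs). It was 3.24 at day 16 and 4.18 in ESCs in the SCR line, and 3.37 and 4.19 in the WT line.

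Among the voltage-gated pore subunits, 6 of 22 were lower than in both controls at day 8 and none was higher, and at day 16 there were 5 lower and 6 higher (22.7% and 27.3%, near the shares of all genes). Kcnd3, which encodes Kv4.3, a pore of the transient outward current of heart and nerve, was lower at all days of the bodies. At day 16 it read 3.8, 3.85 and 3.89 in KD-labelled bodies, 7.48, 7.7 and 7.4 in SCR bodies and 7.48, 7.48 and 7.26 in WT bodies. The controls overlapped each other and stood far above the KD-labelled arrays, which differed by -3.68 from SCR (SE 0.17, 12.8-fold lower, limma adjusted p = 4.8e-20) and by -3.56 from WT (11.8-fold lower, adjusted p = 1.9e-19).

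The gap in Kcnd3 widened day by day. KD minus SCR was -0.86 at day 4, -1.44 at day 8 and -3.36 at day 12, and KD minus WT was -0.86, -2.13 and -2.99 at the same days. In the KD-labelled line the change from ESCs to day 16 was -0.35 (limma adjusted p = 0.1), beside 3.8 in SCR and 3.49 in WT. Kcnd3 has 3 further probe sets, all dim, with mean levels of 2.4 to 3.77. None of them showed the fall: at day 16 against SCR they gave 0.41 (adjusted p = 0.022), -0.23 (adjusted p = 0.17) and -0.06 (adjusted p = 0.61). Kcnd2 (Kv4.2), its close relative, was called lower at day 16, with 3.16, 2.92 and 2.96 in KD-labelled bodies, 3.48, 4.56 and 4 in SCR bodies and 3.5, 4.84 and 3.9 in WT bodies.

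Kcna5 encodes Kv1.5, a pore of the ultrarapid atrial current that is also found in vascular smooth muscle. Its controls peaked at day 8, where it read 3.06, 2.89 and 3.21 in KD-labelled bodies, 6.07, 6.24 and 6.26 in SCR bodies and 6.22, 5.62 and 5.73 in WT bodies. All KD-labelled arrays were below all control arrays, with a difference of -3.14 against SCR (limma adjusted p = 1.7e-17) and -2.8 against WT (adjusted p = 4.4e-16). The difference was smaller later, -2.27 against SCR and -1.71 against WT at day 16. At day 4 it was -0.42 against SCR, at the edge of the threshold, and without SCR replicate 1 of that day it was -0.63 (adjusted p = 0.0053).

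Kcnh2 encodes the hERG channel of the rapid delayed rectifier current of the heart. It read 5.84, 5.88 and 5.56 in KD-labelled bodies of day 8, 7.13, 8.31 and 8.08 in SCR bodies and 6.92, 7.07 and 7.25 in WT bodies. The KD-labelled arrays were the lowest, with a difference of -2.08 against SCR (limma adjusted p = 2.6e-10) and -1.32 against WT (adjusted p = 3e-06). At day 16 the difference was -1.19 against SCR (adjusted p = 1.3e-05) and -0.49 against WT (adjusted p = 0.05 after rounding, called), and SCR exceeded WT by 0.7. In the ESCs the level was 6.22 ± 0.32 in KD-labelled cells, 6.33 ± 0.11 in SCR and 6.58 ± 0.12 in WT (SD, n = 3), with no comparison called.

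Kcnq5 (Kv7.5), which gives M-type currents in nerve and smooth muscle, was low in KD-labelled bodies from day 4. At day 8 it read 3.85, 3.95 and 4.5 in KD-labelled bodies, 6.84, 6.22 and 5.81 in SCR bodies and 5.89, 5.92 and 5.56 in WT bodies. The groups did not overlap, and the differences were -2.19 against SCR (limma adjusted p = 2.8e-10) and -1.69 against WT (adjusted p = 8.6e-08). By day 16 they had narrowed to -0.72 and -0.68. That last fall depended on the probe set, since the mean of all Kcnq5 probe sets gave -0.27 against SCR (adjusted p = 0.062).

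Kcnh8, which encodes a channel of the ELK group known mainly from nerve, was high in KD-labelled bodies. At day 4 it read 5.28, 5.09 and 5.63 in KD-labelled bodies, 3.65, 3.94 and 4.15 in SCR bodies and 3.25, 3.76 and 3.36 in WT bodies. The differences were 1.42 against SCR (limma adjusted p = 5.9e-06) and 1.88 against WT (adjusted p = 4.1e-08), and at day 16 they were 1.01 and 0.89. In ESCs Kcnh8 read 3.77, 3.91 and 3.52 in KD-labelled cells, 5.87, 5.3 and 4.24 in SCR cells and 4.12, 4.4 and 4.13 in WT cells, so that KD-labelled cells were lower than SCR (-1.4, adjusted p = 2.2e-05), while the difference from WT was -0.48 (adjusted p = 0.18).

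**Figure D2:**
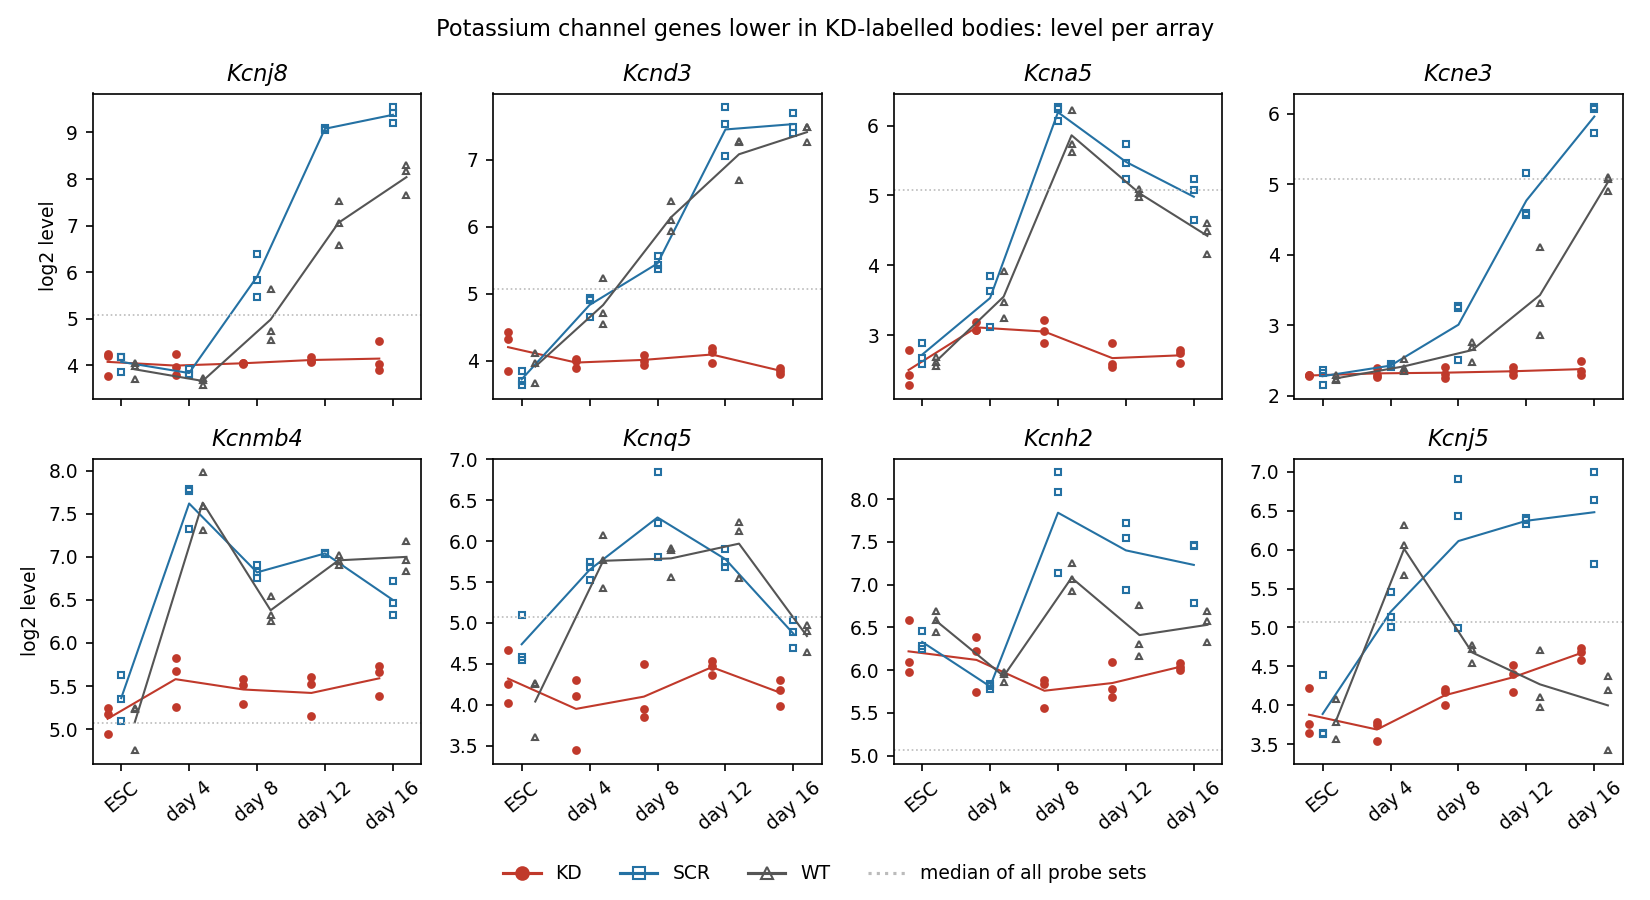
Log2 level of Kcnj8, Kcnd3, Kcna5, Kcne3, Kcnmb4, Kcnq5, Kcnh2 and Kcnj5 on every array (vertical axes) at the 5 stages (horizontal axes), with KD-labelled arrays as filled circles, SCR as squares and WT as triangles; lines join group means and the dotted line is the median of all probe sets, 5.07. Kcnj8 ended at 4.14 in KD-labelled bodies, 9.38 in SCR bodies and 8.04 in WT bodies, and in Kcnj5 the WT mean was 4 at day 16.

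Of 15 auxiliary subunits, 3 were higher and 4 lower than in both controls at day 16. Kcne3, a small membrane subunit that holds Kcnq1 channels open in gut and airway epithelium, was listed near the bottom of the scale in all lines at first. At day 16 it read 2.36, 2.49 and 2.3 in KD-labelled bodies, 6.09, 5.72 and 6.07 in SCR bodies and 5.08, 5.1 and 4.91 in WT bodies. The KD-labelled arrays stayed at the ESC level (2.29 ± 0.01, SD, n = 3), and the difference was -3.58 against SCR (limma adjusted p = 1.3e-18) and -2.65 against WT (adjusted p = 6.8e-15). Kcne4, a related subunit named here after its values were seen, was also lower at day 16 (-1.75 against SCR and -1.22 against WT).

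Kcnmb4 encodes a beta subunit of the large-conductance calcium-activated channel, best known from brain. It was lower from day 4, when it read 5.67, 5.82 and 5.26 in KD-labelled bodies, 7.79, 7.76 and 7.32 in SCR bodies and 7.31, 7.59 and 7.98 in WT bodies. The controls overlapped each other, and the KD-labelled arrays lay below both, the difference being -2.04 (against SCR 4.11-fold lower, limma adjusted p = 7.4e-13, and against WT 4.12-fold lower, adjusted p = 8.8e-13). At day 16 the difference was -0.91 against SCR and -1.41 against WT. Kcnma1, the pore that Kcnmb4 joins, had group means between 5.25 and 5.63 and was set apart from both controls at no stage.

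Kcnip2 (KChIP2), the calcium sensor that binds Kv4 pores in the heart, went the other way from Kcnd3. At day 16 it read 6.52, 6.89 and 6.58 in KD-labelled bodies, 5.16, 5.01 and 5.29 in SCR bodies and 5.26, 5.45 and 5.08 in WT bodies. The KD-labelled arrays were above all control arrays, by 1.51 against SCR (2.85-fold, limma adjusted p = 1e-10) and 1.4 against WT (2.64-fold, adjusted p = 7.2e-10), and the difference was already 1.3 against each at day 4. The ESC means were 6.17 in the KD-labelled line, 6.27 in SCR and 6.51 in WT, and from there to day 16 Kcnip2 changed by -1.12 in SCR and -1.25 in WT, both called. Its change in the KD-labelled line was 0.5 (adjusted p = 0.0092), but 0.41 without KD-labelled ESC replicate 1, 0.38 without KD-labelled day 16 replicate 2 and 0.22 over the mean of its probe sets, none of these called. Of the further Kcnip2 probe sets, both dim, 1 gave 1.29 at day 16 against SCR (adjusted p = 3.6e-10) and the other 0.25 (adjusted p = 0.12). Kcne1, the partner of Kcnq1 in the slow delayed rectifier current, had group means between 3.56 and 4.13 and was called only at day 4 against WT, at -0.32.

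Of 12 tandem-pore-domain channels, 7 were higher than in both controls at day 16 (31.8% of all genes were) and 1 was lower (23.1% of all genes). They gave 2 of the 5 rises of at least 2-fold against SCR at that day, Kcnk5 and Kcnk6. Kcnk1 (TWIK1), a channel of weak basal current known from kidney, brain and heart, changed sides between stages. In ESCs it read 7.1, 6.82 and 7.55 in KD-labelled cells, 10.19, 9.57 and 9.69 in SCR cells and 9.28, 9.37 and 8.46 in WT cells. The KD-labelled arrays were the lowest, with a difference of -2.66 against SCR (6.32-fold lower, limma adjusted p = 7e-13) and -1.88 against WT (3.68-fold lower, adjusted p = 7e-09).

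At day 4 the order of Kcnk1 was turned round. It read 9.92, 10.12 and 10.04 in KD-labelled bodies, 8.33, 8.76 and 8.49 in SCR bodies and 8.66, 8.86 and 9.31 in WT bodies. KD-labelled bodies were then the highest, by 1.5 against SCR (limma adjusted p = 4.9e-08) and 1.08 against WT (adjusted p = 2e-05), and the difference from SCR was 1.76 at day 8, 1.21 at day 12 and 0.8 at day 16. From ESCs to day 16 Kcnk1 rose by 2.36 in the KD-labelled line and fell by 1.1 in SCR, while the WT change was -0.26 (adjusted p = 0.23). A second Kcnk1 probe set gave 1.85 at day 8 and 1.01 at day 16 against SCR, both called.

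Kcnk5 and Kcnk6 encode TASK2 and TWIK2, channels known from epithelia such as kidney. Kcnk5 read 7.6, 8.05 and 7.84 in KD-labelled bodies of day 16, 5.82, 5.89 and 5.56 in SCR bodies and 6, 5.54 and 6.16 in WT bodies. KD-labelled bodies kept the ESC level of 7.76 ± 0.32 (SD, n = 3), with a change of 0.07 by day 16 (limma adjusted p = 0.85), while SCR changed by -1.84 and WT by -1.85. The day 16 difference was 2.07 against SCR (4.21-fold, adjusted p = 1.3e-10) and 1.93 against WT (3.81-fold, adjusted p = 8.7e-10). A second, dimmer Kcnk5 probe set gave 1.29 there (adjusted p = 3.5e-06).

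Kcnk6 was not only kept but raised in the KD-labelled line, by 0.81 from ESCs to day 16 (limma adjusted p = 0.00013), beside -0.83 in SCR and -0.46 in WT. The WT fall was not called without WT ESC replicate 2 (-0.4) or without WT day 16 replicate 3 (-0.31), nor with loess (-0.36). At day 12 Kcnk6 read 8.63, 8.14 and 8.43 in KD-labelled bodies, 7.04, 6.81 and 6.72 in SCR bodies and 7.2, 6.82 and 7.04 in WT bodies, so that the KD-labelled arrays were the highest. The difference was 1.54 against SCR (adjusted p = 3.3e-10) and 1.38 against WT (adjusted p = 4.7e-09).

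Kcnk2 and Kcnk3 were lower than in both controls on some days. Kcnk2 (TREK1), which opens on stretch and on arachidonic acid, was lower in KD-labelled bodies at day 16, with 3.82, 3.78 and 4.08, against 5.06, 5.07 and 5.17 in SCR bodies and 4.89, 5.39 and 4.82 in WT bodies. The difference was -1.21 against SCR (limma adjusted p = 5.3e-06) and -1.14 against WT (adjusted p = 1.5e-05). Kcnk3 (TASK1), an acid-sensitive channel of heart and pulmonary artery, was lower at day 8, with 5.17, 5.34 and 5.26 in KD-labelled bodies, 6.71, 7.34 and 6.48 in SCR bodies and 6.36, 6.57 and 6.28 in WT bodies. It was also lower than both at day 12, while at day 16 the difference from SCR was -0.24 (adjusted p = 0.29), and without KD-labelled replicate 1 of that day it was -0.5 (adjusted p = 0.039).

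**Figure D3:**
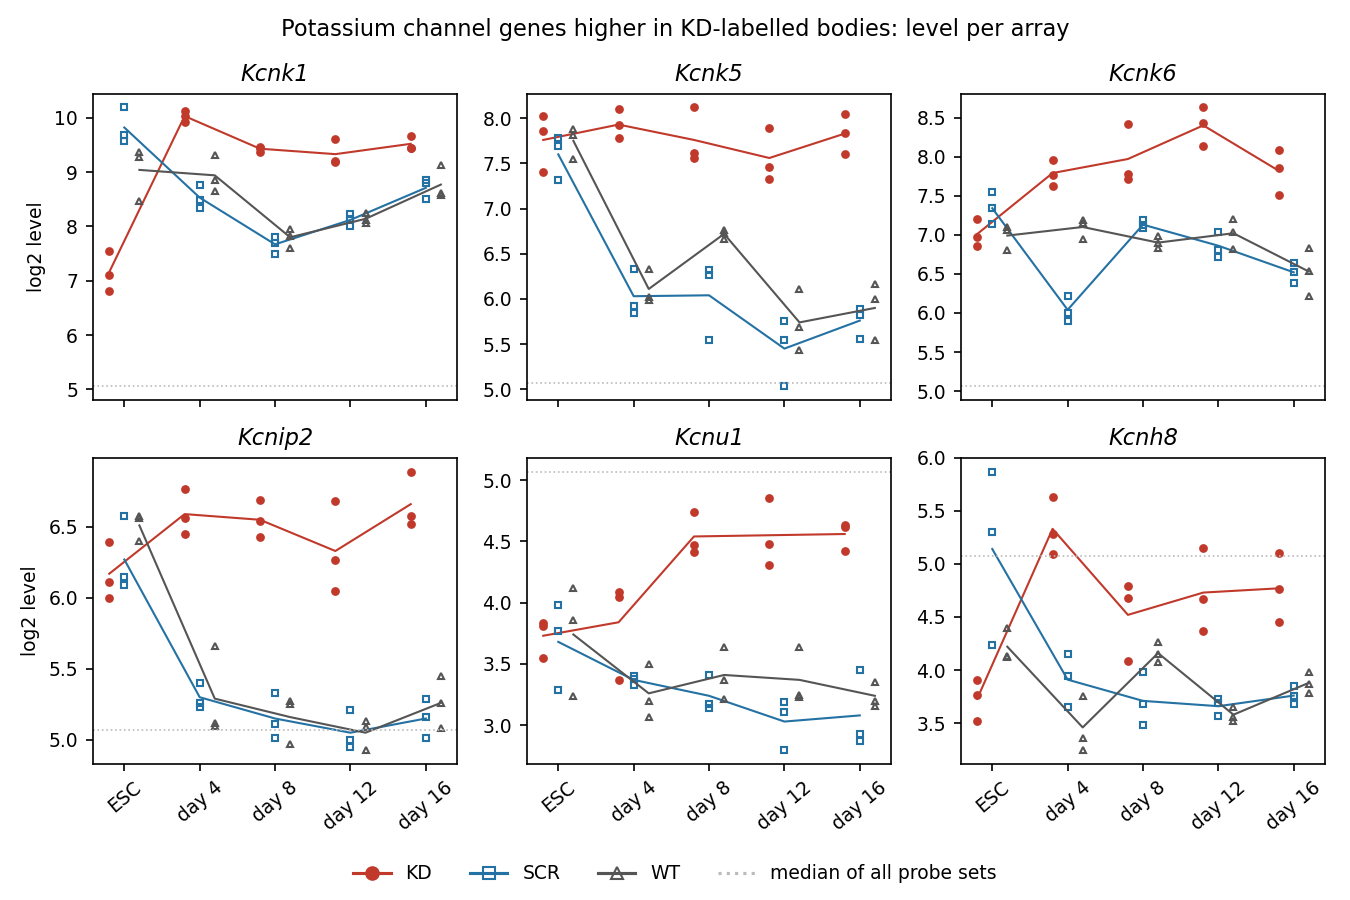
Log2 level of Kcnk1, Kcnk5, Kcnk6, Kcnip2, Kcnu1 and Kcnh8 on every array (vertical axes) at the 5 stages (horizontal axes), with KD-labelled arrays as filled circles, SCR as squares and WT as triangles; lines join group means and the dotted line is the median of all probe sets. Kcnk5 stayed near its ESC level in the KD-labelled line, at 7.83 by day 16, and Kcnk1 was lowest of the 3 lines in KD-labelled ESCs (7.16) and highest in KD-labelled bodies of day 4 (10.03).

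Of the 8 calcium- or sodium-activated pore subunits, 2 were higher and 1 lower than in both controls at day 16. Kcnu1 (Slo3), a channel known from sperm, was dim throughout. It read 4.42, 4.63 and 4.62 in KD-labelled bodies of day 16, 2.93, 2.87 and 3.45 in SCR bodies and 3.16, 3.2 and 3.35 in WT bodies, with no overlap. The difference was 1.47 against SCR (limma adjusted p = 4.9e-08) and 1.32 against WT (adjusted p = 4.8e-07). The lower one was Kcnt2, which encodes a sodium-activated channel and is named after its values were seen, at -2.22 against SCR and -1.36 against WT.

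Kcnn4 encodes the intermediate-conductance calcium-activated channel of blood and epithelial cells. In ESCs it read 6.19, 6.46 and 6.3 in KD-labelled cells, 5.7, 5.98 and 5.74 in SCR cells and 5.96, 6.03 and 5.61 in WT cells, the only gene of the family higher there than in both controls (0.51 against SCR, limma adjusted p = 0.017). The Kcnn4 call was lost without KD-labelled ESC replicate 2 (0.44) and without SCR ESC replicate 1 (0.46) or 3 (0.48). Kcnn2, a small-conductance channel that contributes to atrial repolarisation, changed by -1.58 in WT between ESCs and day 16 (adjusted p = 1.2e-08). In the KD-labelled line the change of Kcnn2 was -0.26 (adjusted p = 0.33), and at day 12 its KD minus SCR was 0.62 but 0.4 without KD-labelled replicate 2 and 0.37 without SCR replicate 2, neither called.

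Of 9 electrically silent subunits, 2 were higher than in both controls at day 16 and 0 lower. From ESCs to day 16, 3 of them fell in the KD-labelled line, 6 in SCR and 6 in WT, and 0 rose. Of all genes, 19.1% fell in the KD-labelled line, 42.7% in SCR and 38.1% in WT, while 19.1%, 29.1% and 28.1% rose. Kcns2, a modulator of Kv2 channels, had a mean of 3.6 in KD-labelled bodies, 3.1 in SCR bodies and 3.18 in WT bodies, and was called against both. Kcns3, a related modulator named after its values were seen, was lower than both at day 4 (mean 6.1 in KD-labelled bodies, 7.01 in SCR and 7.22 in WT) and higher than both at day 16 (6.57, 5.91 and 5.73 in the same order).

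Kcnq1ot1 is the paternally expressed antisense transcript that silences part of an imprinted cluster on chromosome 7, and it overlaps Kcnq1. At day 16 it read 7.61, 7.2 and 7.87 in KD-labelled bodies, 9.31, 8.65 and 8.77 in SCR bodies and 8.78, 8.5 and 8.03 in WT bodies. The KD-labelled arrays were below all control arrays, with a difference of -1.35 against SCR (limma adjusted p = 1.5e-05) and -0.88 against WT (adjusted p = 0.0029). The 5 further Kcnq1ot1 probe sets gave -1.61 to -0.72 against SCR, 4 of them called. Kcnq1 itself, the pore of the slow delayed rectifier, was lower than in SCR (-0.73, adjusted p = 0.00036) but not than WT (-0.05, adjusted p = 0.83), and SCR exceeded WT by 0.69.

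The genes of cardiac repolarisation were set apart about as often as all genes from day 8, with more of them lower than higher. Of 15 measured members of a list of 16 (voltage-gated, inward rectifier and tandem-pore channels known from heart, with 2 of their subunits), 2 were higher and 5 lower than both controls at day 8, 1 higher and 5 lower at day 12 and 3 higher and 5 lower at day 16. The shares set apart, 46.7%, 40% and 53.3%, were near those of all genes (44%, 43.9% and 54.9%). Of all genes, 23.1% were higher and 21% lower at day 8, 24.1% and 19.8% at day 12, and 31.8% and 23.1% at day 16. The falls of day 16 were Kcna5, Kcnd2, Kcnd3, Kcnh2 and Kcnj8, and the rises Kcnip2, Kcnj11 and Kcnj12. The median of KD minus SCR was -0.24 over the list at day 16, beside 0.17 over all genes, while KD minus WT had a median of 0.1 beside 0.13. Kcna4, Kcne1, Kcnj2 and Kcnq1 were set apart from both at no stage.

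Other ion channel genes that work beside these were read from a list of 24, of which 16 were measured. At day 16, 3 were higher in KD-labelled bodies than in SCR bodies and 6 lower (39.8% and 26.8% of all genes). Against WT 3 were higher and 5 lower (34.6% and 26.1% of all genes). The falls against SCR were largest for the calcium channels Cacna1h (-2.69), which gives the T-type current, and Cacna1c (-2.33), the L-type pore of heart and smooth muscle, followed by its subunit Cacnb2 (-1.69) and the T-type pore Cacna1g (-1.3). Against WT the order differed, with -1.76 for Cacna1c, -1.64 for Cacna1h, -1.16 for Cacna1g and -1.05 for Cacnb2. Akap9, a scaffold of Kcnq1 channels, was lower (-1 against SCR and -0.84 against WT). Its level was lower already in ESCs, with means of 7.6 in KD-labelled cells, 8.57 in SCR cells and 8.5 in WT cells. The rises were small: Hcn2 (0.56) and Hcn3 (0.54), pores of the pacemaker current, and Scn4b (0.57), a sodium channel subunit, all against SCR.

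Over time, the controls changed far more potassium channel genes than the KD-labelled line. From ESCs to day 16, 8 genes rose and 7 fell in the KD-labelled line (15 of 84, against 38.1% of all genes). In SCR 13 rose and 46 fell (59 of 84, against 71.8%), and in WT 12 rose and 38 fell (50 of 84, against 66.2%). The KD-labelled count was 9 without KD-labelled ESC replicate 1 and 8 without KD-labelled day 16 replicate 3. With loess the splits were 8 and 4 in the KD-labelled line, 16 and 25 in SCR and 13 and 22 in WT, and the median change of all genes in SCR was -0.03 with loess, in place of -0.19.

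The change to day 16 in the KD-labelled line differed from that in SCR for 38 of 84 genes (against 47.7% of all genes) and from that in WT for 33 (against 45.3%). The largest differences were in Kcnj8 (-5.25 against SCR and -4.06 against WT), Kcnd3 (-4.15 and -3.84) and Kcne3 (-3.58 and -2.68) on the lower side, and in Kcnk1 (3.46 and 2.62) on the higher side. KD minus SCR depended on stage in 39 of 84 genes by a moderated F test in limma, against 58.5% of all genes.

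The courses of the controls could be set against the KD-labelled line without using any array on both sides. Of the 12 genes that rose in WT from ESCs to day 16, 11 fell below SCR in KD-labelled bodies of day 16 (91.7%, against 75.1% of all genes that rose in WT), and they made up 68.8% of the genes lower there (78.6% over all genes). Kcnq3, a pore of M-type currents, was the exception (-0.31, limma adjusted p = 0.23). Of the 38 that fell in WT, 28 were higher in KD-labelled than in SCR bodies (73.7%, against 74.4% of all genes that fell), and they made up 75.7% of the genes higher there (71.3% over all genes). With SCR giving the course and WT the comparison, 11 of 13 genes that rose were lower (84.6%, against 70.3%) and 29 of 46 that fell were higher (63%, against 63.4%).

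**Figure D4:**
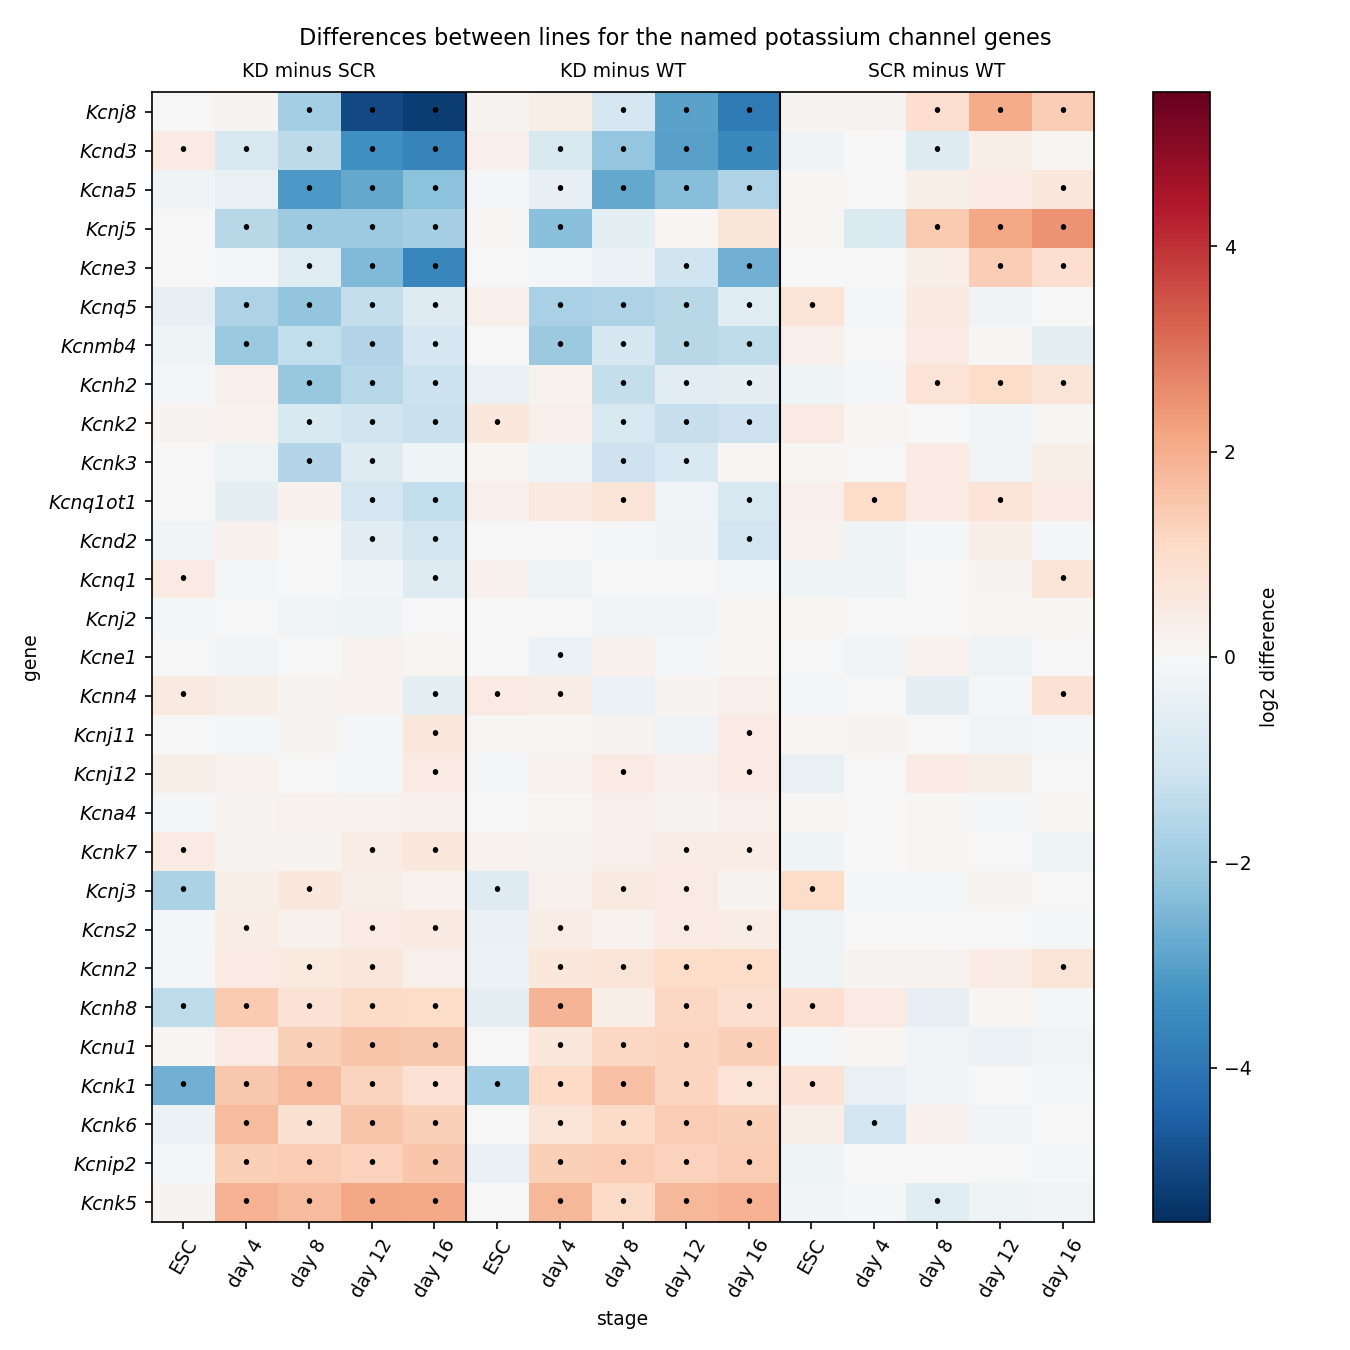
Log2 differences (colour, blue lower and red higher in the first-named line) of the 29 named potassium channel genes (rows) in KD minus SCR, KD minus WT and SCR minus WT at the 5 stages (columns), with dots where a difference was called. Kcnj8 stands at one end with -5.24 at day 16 against SCR and Kcnk5 at the other with 2.07.

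The controls differed from each other in few potassium channel genes. SCR and WT gave 4 calls in ESCs (10.2% of all genes), 2 at day 4 (1.93%), 7 at day 8 (6.99%), 10 at day 12 (14.7%) and 9 at day 16 (8.11%). In ESCs Kcnj3, Kcnh8, Kcnk1 and Kcnq5 were higher in SCR, by 1.02, 0.92, 0.78 and 0.7 in that order. Of all genes, 4.43% were higher in SCR ESCs and 5.72% lower. At day 16 all 9 were higher in SCR, among them Kcnj5, Kcnj8, Kcne3, Kcnh2, Kcna5 and Kcnq1 (3.86% of all genes were higher and 4.25% lower). There, centring arrays on their medians gave 7 higher and 2 lower and loess 9 and 2. At day 12 the split was 8 and 2 (7.05% and 7.67% of all genes), and 6 and 3 with centring. No potassium channel gene was called in the same direction at 4 or more stages. These counts rested on single arrays: in ESCs 1 call was left without SCR replicate 1 or WT replicate 3 and 2 without SCR replicate 2, and at day 4 there was 1 without SCR replicate 1 or 3 or WT replicate 1 or 3. At day 8 there were 3 without SCR replicate 3 and 4 without WT replicate 2 or 3, and at day 12 there were 4 without WT replicate 1 and 5 without WT replicate 3.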

How the data were processed

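RNA of 45 samples had been hybridised to Affymetrix Mouse430 2.0 arrays. The deposited values are log2 signals with 2 decimals, and the authors' processing notes name Affymetrix Expression Console, Partek 6.6 and RMA without saying in which role; the raw scans were not used here. Of 45037 probe sets, 34945 had 1 gene symbol, 932 several and 9160 none, by the platform annotation. Only those with 1 symbol were used, the brightest per gene, leaving 18193 genes. Groups followed the sample titles, although the first array of day 8 of each line carries an ESC cell-type tag, and replicate numbers followed the source names. No array shared more than 2.22% identical values with another of its group.

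A model of 15 group means was fitted with limma 3.58.1 in R 4.3.3, tested on simulated data, with 30 residual degrees of freedom. P-values were adjusted by Benjamini-Hochberg within each comparison, and genes were called at 0.05. The 29 named genes were first the 3 largest rises and falls per stage that were set apart from both controls. These had to be at least 2-fold against SCR, with all 3 arrays beyond the 6 of the controls. To them were added the 5 largest of each in the WT course and the 3 largest of each in the KD-labelled course. The 5 with the strongest stage dependence, the cardiac list and Kcnq1ot1 completed them. Members and lists were chosen with earlier results of these data known. Alternatives were median centring, cyclic loess, leaving out dim genes, the mean of probe sets, a replicate block, fitting the groups compared alone and leaving out each array. Same-numbered arrays of different lines correlated at -0.3 to 0.48 in their deviations, and 22 of 45 pairs exceeded 0.1. In 3 comparisons all 3 pairs did (SCR and WT in ESCs and at days 8 and 12), so the numbers were taken to pair samples there alone. A block on the number within each stage was added for these after seeing the data.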

Additional observations from a re-analysis of the deposited data

Results flagged for a closer look

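The difference between the KD-labelled and SCR lines changed with stage in 39 of 84 potassium channel genes (46.4%), against 58.5% of all genes, by a moderated F test in limma adjusted over all genes. The 23 named genes among them follow with their values; some were named for a strong stage dependence or a large difference at 1 stage, so their number supports nothing. Among the inward rectifiers the adjusted p was 8.8e-19 for Kcnj8, 4e-10 for Kcnj3, 0.00045 for Kcnj5 and 0.029 for Kcnj11. Among the voltage-gated pores it was 3.4e-17 for Kcnd3, 9.8e-14 for Kcna5, 2.7e-08 for Kcnh8, 5.1e-08 for Kcnh2, 8.2e-05 for Kcnq5, 0.0017 for Kcnq1 and 0.0028 for Kcnd2. Among the auxiliary subunits it was 6.3e-15 for Kcne3, 1.4e-07 for Kcnip2 and 3.8e-07 for Kcnmb4. Among the tandem-pore-domain channels it was 8.1e-16 for Kcnk1, 5.2e-09 for Kcnk6, 2.1e-06 for Kcnk5, 4.1e-05 for Kcnk2 and 7.5e-05 for Kcnk3. It was 2.3e-05 for Kcnu1, 0.0014 for Kcnn4, 0.032 for Kcns2 and 0.00098 for the transcript Kcnq1ot1. Kcnk1 was called in opposite directions, -2.66 in ESCs and 1.76 at day 8, and so was Kcnj3, -1.73 in ESCs and 0.56 at day 8.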

How the results depend on the processing

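No called value of a named gene changed sign under any alternative run, but the balance of calls turned where it was near even. KD minus SCR gave 13 higher and 20 lower at day 8 with loess and 14 and 16 with only the groups compared (18 and 16 as reported), and at day 12 24 and 18 with centring and 18 and 17 with the mean of probe sets (18 and 19). KD minus WT gave 16 and 18 at day 12 with loess (17 and 16), and at day 8 13 and 16 with loess, 14 and 15 with centring and 17 and 13 with the mean of probe sets (15 and 15). The KD-labelled change to day 16 gave 6 and 7 with the mean of probe sets (8 and 7), and SCR minus WT at day 8 gave 0 and 2 with only the groups compared (4 and 3). Without dim genes KD minus SCR gave 3 and 2 at day 4 and 4 and 3 at day 12, and KD minus WT 3 and 2 at day 4. Leaving out genes below the median mean level kept 8 potassium channel genes in the test, so counts fell by construction: KD minus SCR gave 2 calls in ESCs and 5, 7, 7 and 8 at days 4, 8, 12 and 16, KD minus WT 1, 5, 8, 6 and 8 at the 5 stages, both controls together 1, 5, 7, 6 and 8, and SCR minus WT 1 in ESCs, 2 at days 8 and 12 and 1 at day 16. The changes to day 16 gave 3 in the KD-labelled line, 8 in SCR and 6 in WT, their differences 6 against SCR and 7 against WT, and stage dependence 7. Fitting only the groups compared, with fewer arrays to estimate the spread, gave 3 calls for KD minus WT in ESCs and 0 for SCR minus WT in ESCs, 1 at day 4, 2 at day 8 and 5 at day 16.

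Leaving out each array in turn gave 4 to 10 calls for KD minus SCR in ESCs, 14 to 21 at day 4, 26 to 34 at day 8, 31 to 37 at day 12 and 48 to 53 at day 16. It gave 3 to 5 for KD minus WT in ESCs, 2 to 4 for both controls together in ESCs, 8 to 14 for the KD-labelled change to day 16, and for SCR minus WT 1 to 6 in ESCs, 1 to 2 at day 4, 3 to 9 at day 8 and 4 to 12 at day 12. At day 16 the count set apart from both controls was 30 to 41. Over the named genes 43 values lost and 14 gained a call when an array was left out, 4 and 2 with loess, 7 and 3 with the mean of probe sets, 0 and 5 with centring and 5 and 4 with only the groups compared. With the replicate block KD minus SCR gave 37 higher and 16 lower genes at day 16, no named call was lost, and 1 was gained (Kcnn4 at day 4, 0.38). A block within the stage over the paired SCR and WT arrays, chosen after seeing the data, gave 5 calls for SCR minus WT in ESCs, 9 at day 8 and 10 at day 12. The cause of these moves was not tested. Of 492 pairs of a further probe set and a called comparison, 190 were called the same way and 13 the opposite way. Most potassium channel genes lie near the dim end, where signal over background limits what can be seen.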
